A study of Homo sapiens with 8 samples.

Results

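Cytosolic nucleic acid sensing was described through 8 genes listed by symbol: CGAS, STING1, TBK1, IRF3, TREX1, MAVS, ADAR and ZBP1. They were chosen by name, with no threshold on a measured value, but with earlier results of these data known. Reads were matched to 35113 genes, among them 7 of the 8, and 6 of the 8 were among the 15221 genes that passed the filter on low counts. STING1 is not analysed here, because no transcript identifier could be matched to it. ZBP1 did not pass the filter and is described by its counts alone.

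The libraries were bulk, poly(A)-selected RNA-seq of 2 pairs of head and neck squamous cell carcinoma lines, 2 libraries in each of 4 groups. HPV- resistant cells were the clone SCC411, and HPV- parental cells were the line UPCISCC89 (SCC89), which does not carry human papillomavirus. HPV+ resistant cells were the clone SCC35, and HPV+ parental cells were the papillomavirus-positive line UDSCC2 (SCC2). Both clones had been selected with stepwise rising cisplatin, a DNA-crosslinking drug, and the HPV+ line was taken to a higher dose than the HPV- line. Each resistant group is 1 clone grown out from a single cell, so a difference from the parental population cannot be told apart from a difference that the founding cell already had. Whether the 2 libraries of a group were separate cultures is not stated, and the p-values given here reflect no more than the spread among these libraries, which may be technical.

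DNA does not normally lie free in the cytosol, and cells read its presence there as a sign of infection or of leakage from a damaged nucleus or mitochondrion. The enzyme cGAS binds such DNA and makes the messenger cGAMP, which activates STING1 on the endoplasmic reticulum, and STING1 recruits the kinase TBK1, which phosphorylates the transcription factor IRF3 and so starts interferon genes. Double-stranded RNA reaches the same kinase through RIG-I-like receptors and the mitochondrial adaptor MAVS, while TREX1, which degrades cytosolic DNA, and ADAR, which edits double-stranded RNA, keep the cell's own nucleic acids from setting off the pathway.

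The libraries held between 20250246 and 27341284 assigned read pairs, of which between 4.325% and 5.126% fell on transcripts that matched no gene and were left out. Epithelial markers were present in every library, with a summed level of 1700 to 2220 TPM (transcripts scaled to a fixed library total and corrected for length) in HPV- resistant cells against 6990 to 7860 TPM in HPV- parental cells, and of 1600 to 2000 TPM in HPV+ resistant cells against 1320 to 1480 TPM in HPV+ parental cells. The 6 leukocyte markers summed to 50.5 to 63.0 TPM in HPV- resistant cells against 101 to 113 TPM in HPV- parental cells, and to 9.73 to 12.1 TPM in HPV+ resistant cells against 13.2 to 14 TPM in HPV+ parental cells, mostly from CD68 (up to 107 TPM in a library) and CD14 (up to 23.9 TPM), while PTPRC had at most 4 counts in a library. The 5 fibroblast markers summed to 5.39 to 6.14 TPM in HPV- resistant cells against 1.78 to 2.90 TPM in HPV- parental cells, and to 87.2 to 130 TPM in HPV+ resistant cells against 287 to 377 TPM in HPV+ parental cells, mostly from LUM (up to 253 TPM in a library) and DCN (up to 120 TPM), while COL1A2 reached at most 1.29 TPM. The 4 endothelial markers summed to at most 0.0934 TPM. The part of these markers in the results below was not tested. In bulk libraries, fewer cells that express a gene and less RNA per cell cannot be told apart.

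Levels of different genes were compared per length, as TPM. ADAR and IRF3 were the most abundant members in all 4 groups, with group means of 63.0 to 106 TPM for ADAR and 73.1 to 104 TPM for IRF3. CGAS, TBK1 and MAVS lay well below them, with group means of 17.9 to 35.1 TPM, and neighbours among these 3 often overlapped in their libraries. These levels are sums over all transcripts of a gene. The IRF3 transcripts for 427 residues alone had 23.6 to 31.5 TPM in a library. That lies within the 17.2 to 34.7 TPM of the MAVS transcript for 540 residues. TREX1 came directly after ADAR and IRF3 in HPV- resistant cells (35.7 TPM), in HPV- parental cells (29.3 TPM) and in HPV+ parental cells (28.0 TPM), and its libraries overlapped with those of the next member, MAVS, in HPV- resistant cells only. In HPV+ resistant cells TREX1 ranked sixth at 14.6 TPM, below CGAS, MAVS and TBK1. ZBP1 was last in every group, with a group mean of at most 0.175 TPM.

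**Figure D1:**
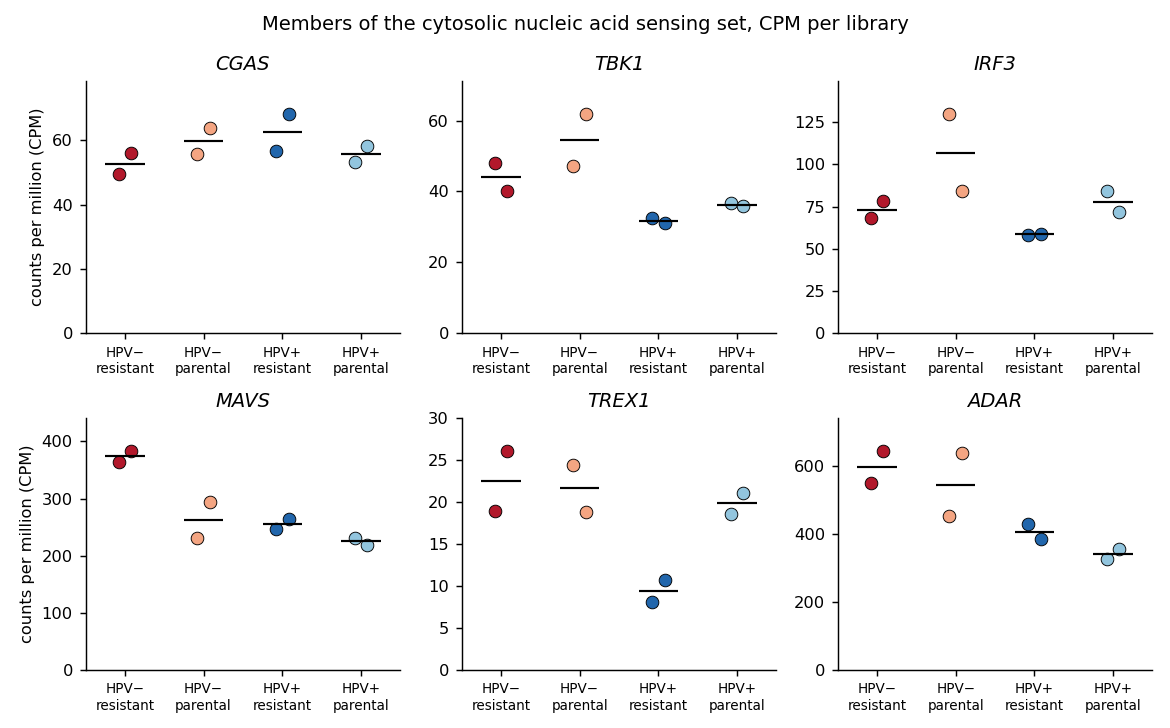
Read counts scaled to library size (CPM) of CGAS, TBK1, IRF3, MAVS, TREX1 and ADAR in each of the 8 libraries, with each axis starting at 0; points are libraries and bars are group means (2 libraries per group). TREX1 lay at 8.05 and 10.7 CPM in HPV+ resistant cells and at 18.6 CPM or above in the other 6 libraries.

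The first question was which members differed between each resistant clone and its parental line. A gene was taken to have risen or fallen where its adjusted p-value in edgeR's quasi-likelihood test was under 0.05, and was called differentially expressed where it also changed by more than 1 on the log2 scale. MAVS alone rose in HPV- resistant cells (1 of 6 members tested, against 12.8% of all genes that rose and 26.8% that rose or fell), and TREX1 alone fell in HPV+ resistant cells (1 of 6, against 10.5% that fell and 18.1% that rose or fell). Among the members, edgeR called 0 differentially expressed in HPV- resistant cells, where 11.3% of all genes were called; DESeq2 also called 0, and 2 members had an unadjusted p under 0.05. TREX1 was the 1 member called in HPV+ resistant cells, where 8.0% of all genes were called and 4.6% were called lower. With 6 members, such counts cannot be read as above or below the share among all genes.

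TREX1 encodes the main exonuclease for DNA in the cytosol. It had 8.05 and 10.7 CPM in HPV+ resistant cells, against 18.6 and 21.1 CPM in HPV+ parental cells. The groups did not overlap, and both resistant libraries lay below every other library of the series. The log2 fold change was -1.08 (SE 0.23, 95% interval -1.59 to -0.58, adjusted p 0.0104 in edgeR), which is 0.472 of the parental level. TREX1 had 18.9 and 26.1 CPM in HPV- resistant cells, against 24.4 and 18.8 CPM in HPV- parental cells. These groups overlapped, and the log2 fold change was 0.06 (95% interval -0.43 to 0.56, adjusted p 0.874). The fall in HPV+ cells was no longer past the threshold when parental replicate 1 (adjusted p 0.0518), parental replicate 2 (0.0723) or resistant replicate 1 (0.0756) of that pair was left out, with a log2 fold change of -1.30 to -0.90 over the libraries left out.

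The TREX1 gene (ENSG00000213689, GRCh38, chr3:48465811-48467645, plus strand) lies inside the ATRIP gene on the same strand, so reads over the shared stretch were divided between the genes by the quantification. ATRIP, which brings the checkpoint kinase ATR to damaged DNA, had a log2 fold change of -0.54 in HPV+ resistant cells (SE 0.22, adjusted p 0.116 in edgeR), and -0.25 in HPV- resistant cells (adjusted p 0.433). Most reads given to TREX1 came from the transcript that codes for the 314-residue protein, with 114 and 184 estimated reads in HPV+ resistant cells against 361 and 363 in HPV+ parental cells. The transcripts that code for a 175-residue form had 89.3 and 91.3 estimated reads in HPV+ resistant cells, against 111 and 196 in HPV+ parental cells. Both forms were thus lower in both resistant libraries, but reads are divided among transcripts of 1 gene with an error that the files do not give, and no test was made. The 20 tested genes nearest to TREX1 on the chromosome had a median log2 fold change of -0.23 in HPV+ resistant cells, and 2 of them fell.

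MAVS carries the signal of RIG-I-like receptors on the mitochondrial surface. It had 364 and 384 CPM in HPV- resistant cells, against 231 and 294 CPM in HPV- parental cells. The groups did not overlap, with a log2 fold change of 0.51 (SE 0.15, 95% interval 0.18 to 0.84, adjusted p 0.0306 in edgeR), which is 1.42-fold higher. HPV+ resistant cells had 246 and 265 CPM of MAVS, against 231 and 219 CPM in HPV+ parental cells. These groups did not overlap either, but the log2 fold change of 0.18 did not pass the test (95% interval -0.15 to 0.52, adjusted p 0.427). The rise in HPV- cells missed the threshold in 8 of 16 alternative analyses, namely with the 4 HPV- libraries alone and on leaving out any library but HPV- parental replicate 2, with a log2 fold change of 0.34 to 0.62 over all 16. The transcript for the full 540-residue protein took between 91.3% and 97.5% of the reads of MAVS (ENSG00000088888, chr20:3846799-3876123, plus strand) in all 8 libraries.

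IRF3 (ENSG00000126456, chr19:49659569-49665875, minus strand) is the transcription factor that TBK1 phosphorylates. It had 68.1 and 78.3 CPM in HPV- resistant cells, against 130 and 84.2 CPM in HPV- parental cells. It had 58.4 and 58.8 CPM in HPV+ resistant cells, against 84.4 and 71.6 CPM in HPV+ parental cells. Both clones lay below their parental libraries without overlap, but neither difference passed the test with all 8 libraries. The log2 fold change was -0.55 in HPV- resistant cells (95% interval -0.99 to -0.11, adjusted p 0.065 in edgeR) and -0.41 in HPV+ resistant cells (95% interval -0.85 to 0.03, adjusted p 0.177). The HPV- difference passed with DESeq2 (adjusted p 0.0318), with no filter on low counts (0.0221) and without parental replicate 2 (-0.90, 0.00138), and it was -0.21 without parental replicate 1 (0.364). The HPV+ difference passed with the 4 HPV+ libraries alone (0.00959) and without either HPV- parental library (0.036 for replicate 1 and 0.031 for replicate 2). IRF3 overlaps BCL2L12 on the opposite strand, and whether the counting used strand is not stated, so reads of the 2 genes may not be fully separated. BCL2L12 fell by 0.59 on the log2 scale in HPV- resistant cells (adjusted p 0.0369) and had a log2 fold change of -0.55 in HPV+ resistant cells (adjusted p 0.061). IRF3 transcripts for 427 residues had 28.0 and 31.5 TPM in HPV- resistant cells, against 31.2 and 23.6 TPM in HPV- parental cells, with overlap. Lower without overlap were those for 452 residues (5.59 and 4.84 against 12.8 and 8.49) and for 281 residues (6.05 and 14.2 against 29.6 and 24.4). In HPV+ resistant cells the 427-residue class had 25.1 and 24.8 TPM, against 30.3 and 31.3 TPM in HPV+ parental cells. No test was made on these estimates.

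TBK1 (ENSG00000183735, chr12:64452090-64502114, plus strand), the kinase on which the DNA and the RNA branch meet, had 48.0 and 40.0 CPM in HPV- resistant cells, against 47.3 and 61.9 CPM in HPV- parental cells. It had 32.5 and 31.0 CPM in HPV+ resistant cells, against 36.6 and 35.9 CPM in HPV+ parental cells. The libraries overlapped only in the HPV- pair, and neither change passed the test, with log2 fold changes of -0.31 (95% interval -0.68 to 0.05, adjusted p 0.185 in edgeR) and -0.19 (95% interval -0.56 to 0.17, adjusted p 0.445). The HPV- value passed without HPV- parental replicate 1 (-0.50, adjusted p 0.0491). On the TPM scale, which allows for the length of the transcripts used, TBK1 lay at 22.0 and 18.6 TPM in HPV+ resistant cells against 18.2 and 17.6 TPM in HPV+ parental cells. For the gene as a whole, the direction in HPV+ cells therefore differed between the scales. The transcripts for the 729-residue protein had 9.23 and 6.87 TPM in HPV+ resistant cells, against 9.57 and 10.7 TPM in HPV+ parental cells. They were thus lower on the TPM scale too, although no test was made on these estimates. The 20 tested genes nearest to TBK1 on the chromosome had a median log2 fold change of -0.53 in HPV- resistant cells. Of these, 8 fell and 0 rose. Their median was 0.11 in HPV+ resistant cells. The part of the chromosome region in the TBK1 values was not tested.

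CGAS (ENSG00000164430, chr6:73413515-73452297, minus strand), the DNA sensor itself, had the smallest spread of the 6 members over the 8 libraries (standard deviation 0.145 on the log2 scale). It had 49.4 and 55.9 CPM in HPV- resistant cells, against 55.7 and 63.9 CPM in HPV- parental cells. In HPV+ resistant cells it had 56.7 and 68.2 CPM, against 53.3 and 58.2 CPM in HPV+ parental cells. Libraries of clone and parental line overlapped in both pairs. The log2 fold change was -0.18 in HPV- resistant cells (95% interval -0.52 to 0.15, adjusted p 0.399 in edgeR). In HPV+ resistant cells it was 0.17 (95% interval -0.17 to 0.50, adjusted p 0.476). Both intervals lay within the limit of 1 used for a call, but they cover only the spread among these libraries.

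**Figure D2:**
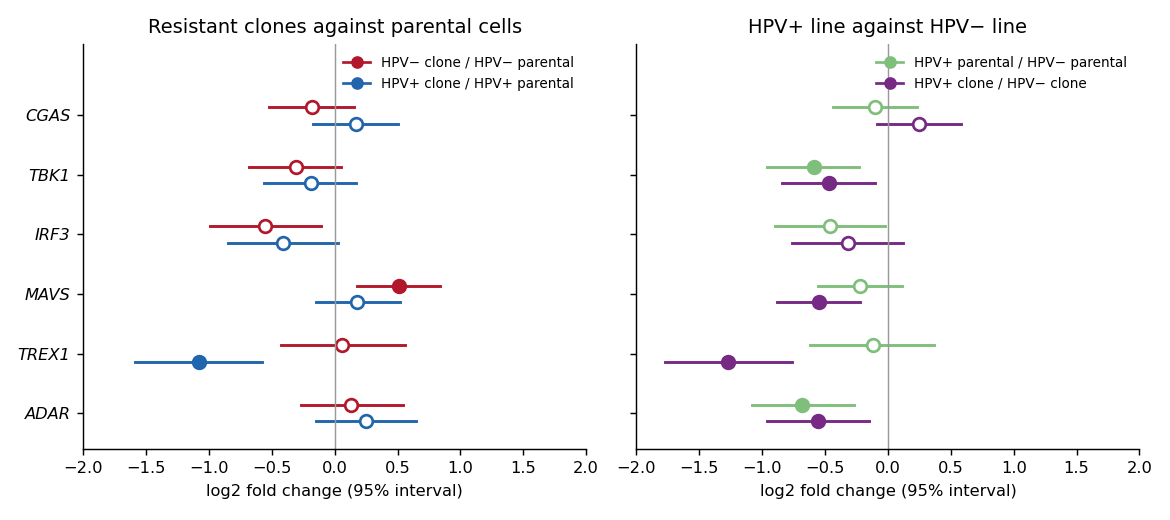
Log2 fold change of the 6 members tested, with 95% intervals; the left panel sets each clone against its parental line, the right panel sets HPV+ against HPV- cells among clones and among parental lines, and filled points had an adjusted p under 0.05 in edgeR. On the left, the points that are filled are MAVS in HPV- cells (0.51) and TREX1 in HPV+ cells (-1.08).

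ADAR (ENSG00000160710, chr1:154581695-154628013, minus strand) converts adenosine to inosine in double-stranded RNA, which keeps such RNA from being read as foreign. It had 551 and 646 CPM in HPV- resistant cells, against 454 and 638 CPM in HPV- parental cells, where the libraries overlapped. In HPV+ resistant cells it had 430 and 384 CPM, against 327 and 357 CPM in HPV+ parental cells, without overlap. Neither change passed the test: the log2 fold change was 0.13 in HPV- resistant cells (95% interval -0.27 to 0.54, adjusted p 0.631 in edgeR) and 0.25 in HPV+ resistant cells (95% interval -0.15 to 0.65, adjusted p 0.369).

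The gene makes a long, interferon-inducible protein, p150, which also enters the cytoplasm, and a shorter, constitutive and mainly nuclear protein, p110, and the forms start mainly at separate promoters. The 30 bases before each start are shown because the levels of the forms are compared next. The p150 start is that of the transcript for 1226 residues (stretch chr1:154608187-154608216, GRCh38, minus strand), and the p110 start shown is that of a transcript for 931 residues, 19782 bases upstream (stretch chr1:154627969-154627998, minus strand). Capitals mark the core of an interferon-stimulated response element, which is GAAA, then any bases NN, then GAAA again, searched on both strands.
ADAR p150 start: aaggctttccgaggaaacGAAAGCGAAAtt
ADAR p110 start: atgatgtcaccaatctgcgaccagaccatt
The core stands 12 bases before the p150 start and has no match in the stretch before the p110 start. For scale, 3.57% of the 35116 RefSeq promoter windows of GRCh38.p14, each 300 bases long, hold the core on either strand.

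Transcripts were grouped by the length of their protein, with 3 in the p150 class (1165 to 1226 residues) and 11 in the p110 class (912 to 931 residues). The classes do not fully separate the promoters, since 2 of the 11 begin at or near the p150 start, with up to 270.5 and 448.5 estimated reads in a library. The p150 class had 55.5 and 68.6 TPM in HPV- resistant cells, against 35.4 and 57.7 TPM in HPV- parental cells. It had 43.2 and 25.2 TPM in HPV+ resistant cells, against 26.1 and 27.3 TPM in HPV+ parental cells, so the 2 HPV+ resistant libraries lay on either side of their parental pair. Of the reads of both classes together, p150 made up 64.3% and 65.4% in HPV- resistant cells, against 61.6% and 59.5% in HPV- parental cells, without overlap. The p150 share was 60.6% and 39.1% in HPV+ resistant cells, against 56.0% and 49.3% in HPV+ parental cells. The spread within HPV+ resistant cells was larger than any difference between group means, and no test was made on these estimates.

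**Figure D3:**
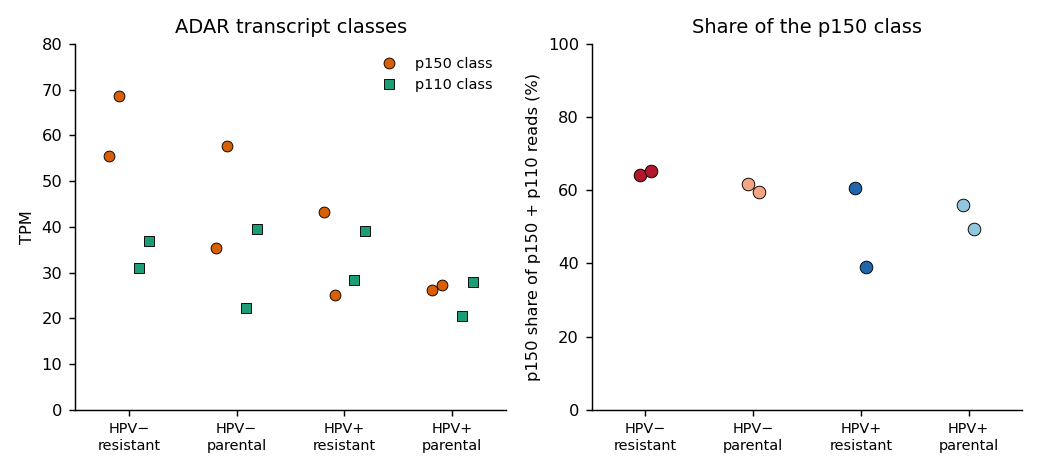
Levels of the ADAR p150 class (circles) and p110 class (squares) in TPM in each library (left), and the p150 reads as a percentage of the reads of both classes (right), with 2 libraries per group. The p150 share lay between 59.5% and 65.4% in the 4 HPV- libraries and between 39.1% and 60.6% in the 4 HPV+ libraries.

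ZBP1 recognises Z-form nucleic acid and can start necroptosis, a programmed form of cell death. It had 4 and 4 counts in HPV- resistant libraries, against 6 and 3 in HPV- parental libraries, and 1 and 0 counts in HPV+ resistant libraries, against 0 and 1 in HPV+ parental libraries. The summed ratio of clone to parental line was 0.911 in HPV- cells (exact 95% interval 0.306 to 2.66) and 1.02 in HPV+ cells (0.013 to 79.8). A difference between clone and parental line was therefore not detectable at this depth. HPV+ parental cells had 0.0876 of the HPV- parental level (0.002 to 0.632), and HPV+ resistant cells had 0.0978 of the HPV- resistant level (0.0022 to 0.729). These intervals cover counting error only, and without the filter on low counts edgeR gave adjusted p-values of 0.213 for the parental lines and 0.246 for the clones. ZBP1 (ENSG00000124256, chr20:57603846-57620576, minus strand) is itself an interferon-stimulated gene, and the stretch from 21 to 50 bases after its start (chr20:57620527-57620556, minus strand) is shown because it holds 2 overlapping matches to the same core on the opposite strand, in capitals.
ZBP1 start: cgaacagagaagTTTCATTTTCTTTTTCtc
The windows of 300 bases around the starts of CGAS, TBK1, IRF3, TREX1 and MAVS had no match to the core. An E2F-like motif, TTTCCCGC, searched on both strands and held by 1.63% of the RefSeq windows, was found 128 bases before the start of IRF3, and the STAT-like motif TTCNNNGAA, held by 7.66%, was found in no member's window.

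An interaction term tested whether a gene responded differently in the HPV+ and the HPV- pair. TREX1 was the 1 member of 6 called here, against 11.7% of all genes and 6.57% in the same direction, with a difference of -1.14 (HPV+ minus HPV-, log2, SE 0.32, 95% interval -1.85 to -0.44, adjusted p 0.0343 in edgeR). The call was lost in 6 of 15 alternative analyses, namely with an offset for transcript length, and on leaving out replicate 2 of either HPV- group, either HPV+ parental library or replicate 1 of the HPV+ clone (adjusted p 0.00772 to 0.126 over all 15). The other members had differences of 0.35 for CGAS, 0.12 for TBK1, 0.14 for IRF3, -0.33 for MAVS and 0.12 for ADAR, with adjusted p-values from 0.302 for CGAS to 0.82 for ADAR. The rise of MAVS in HPV- cells was thus not shown to differ from its value in HPV+ cells.

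The second question was how the members differed between HPV+ and HPV- cells. These comparisons use the same libraries as those above. Each HPV status was represented by a single line and its clone, so a difference by HPV status cannot be told apart from any other difference between the lines. Between the parental lines, TBK1 and ADAR were lower in HPV+ cells, which is 2 of 6 members, against 30% of all genes that were lower and 58.0% that were higher or lower. Neither passed the fold limit, so edgeR called 0 members against 37.0% of all genes; DESeq2 also called 0, and 3 members had an unadjusted p under 0.05. The log2 fold change of HPV+ over HPV- parental cells was -0.59 for TBK1 (SE 0.16, adjusted p 0.0104) and -0.68 for ADAR (SE 0.18, adjusted p 0.00896), and the libraries given above for the 2 parental lines did not overlap for either gene. ADAR missed the threshold only when HPV+ parental replicate 1 was left out (adjusted p 0.0618), and TBK1 when either HPV+ parental library was (adjusted p 0.0509 for replicate 1 and 0.0673 for replicate 2). MAVS, with -0.22, passed without HPV- parental replicate 1 (adjusted p 0.0255), and IRF3, with -0.46 (adjusted p 0.0705), passed with DESeq2 (0.0482), with no filter on low counts (0.0386) and without HPV- parental replicate 2 (0.00109).

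Between the clones, TBK1, TREX1, MAVS and ADAR were lower in HPV+ resistant cells than in HPV- resistant cells, which is 4 of 6 members, against 30.4% of all genes that were lower and 57.9% that were higher or lower. TREX1 was the 1 member called, against 36.0% of all genes and 20% called lower, with a log2 fold change of -1.27 (SE 0.23, 95% interval -1.77 to -0.76, adjusted p 0.00082 in edgeR), and it passed in all 16 alternative analyses. The parental lines had a TREX1 value of -0.12 (95% interval -0.62 to 0.37, adjusted p 0.663). MAVS had -0.55 (SE 0.15, adjusted p 0.00953) between the clones and -0.22 (adjusted p 0.231) between the parental lines. The 20 tested genes nearest to MAVS on chromosome 20 had a median of -0.72 between the clones, where 14 were lower and 2 higher. Between the parental lines their median was -0.56, with 11 lower and 1 higher. The part of the chromosome region in the MAVS values was not tested. ADAR had -0.56 between the clones (SE 0.18, adjusted p 0.0229), while the 20 genes nearest to it had a median of 0.14. TBK1 had -0.47 (adjusted p 0.0308), CGAS had 0.25 (adjusted p 0.185) and IRF3 had -0.32 (adjusted p 0.192). MAVS missed the threshold without HPV+ resistant replicate 1 (adjusted p 0.08), ADAR without HPV- resistant replicate 2 (0.13) or without either HPV+ resistant library (0.057 and 0.14), and IRF3 passed without HPV- parental replicate 1 (0.0463). TBK1 missed it in 6 of 16 alternatives, which were the offset for transcript length (0.542), HPV- resistant replicate 1 left out (0.182) and each of the 4 HPV+ libraries left out (0.0548 to 0.136).

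The genes whose profile lay nearest to each member were ranked by the root mean square difference of centred log2 CPM over the 8 libraries, among 10995 genes, as a description without a test. OTUB1, a deubiquitinase, lay nearest to IRF3 at 0.029 log2 units, against a standard deviation of 0.369 for IRF3 itself. HDLBP lay nearest to ADAR at 0.046, against a standard deviation of 0.375. The nearest gene to TREX1 was JMJD8 at 0.11 (standard deviation of TREX1 0.585), to TBK1 PITPNB at 0.078 (0.334), to MAVS MKRN1 at 0.086 (0.308), and to CGAS SNAP29 at 0.076 (0.145).

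The other genes of the pathway were taken from a list of 119 named by role (sensors, nucleases, cGAMP and STING traffic, kinase partners, transcription factors, interferons and their targets), of which 104 were tested. This list too was chosen with earlier results of these data known. In HPV- resistant cells 12 of the 104 rose and 23 fell, which is 33.7% against 26.8% of all genes. For the HPV+ clone, 17 of them rose and 9 fell, which is 25% against 18.1%. By the stricter rule, 2 were called higher and 15 lower in HPV- resistant cells, and 8 were called higher and 3 lower in HPV+ resistant cells, which is 16.3% and 10.6% of the list, against 11.3% and 8.0% of all genes. Fewer were called in the HPV+ pair when parental replicate 1 or replicate 1 of the clone was left out. The share of all genes called in those analyses is not given here, so the loss cannot be set against it.

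MX1, ISG15 and IFIT1, which are induced by interferon, fell in HPV- resistant cells and rose in HPV+ resistant cells. Of 9 genes of this kind tested, 5 fell in HPV- resistant cells, against 14.1% of all genes, with a median log2 fold change of -1.14 for the 9, and 4 rose in HPV+ resistant cells, against 7.65% of all genes, with a median of 0.96. The median over all genes was 0.04 in the HPV- clone and 0 in the HPV+ clone. MX1, which blocks incoming viruses, had 197 and 264 CPM in HPV- resistant cells, against 384 and 410 CPM in HPV- parental cells. It had 112 and 66.3 CPM in HPV+ resistant cells, against 15.1 and 16.5 CPM in HPV+ parental cells. MX1 thus fell by 0.78 on the log2 scale in the HPV- clone (adjusted p 0.0325 in edgeR) and rose by 2.50 in the HPV+ clone (SE 0.25, adjusted p 0.000336), with no overlap in either pair. The ubiquitin-like modifier ISG15 fell by 1.56 in HPV- resistant cells (adjusted p 0.00619) and rose by 1.18 in HPV+ resistant cells (adjusted p 0.0275). The interaction was positive and passed for 5 of the 9 genes, and for as many in each of 15 alternatives, against 8.16% of all genes in that direction and 16.7% in either. The separate counts were lower when some single libraries were left out, which also leaves fewer libraries to estimate the spread. These were resistant replicate 1 for the fall in HPV- cells and parental replicate 1 for the rise in HPV+ cells, among others. The fall of MX1 was lost without any 1 of HPV- parental replicates 1 and 2 and HPV- resistant replicate 1. That of ISG15 was lost without HPV- parental replicate 1, and that of IFIT1 without that library or HPV- resistant replicate 1. The rise of ISG15 was lost without any 1 of the 4 HPV+ or the 2 HPV- parental libraries. It was also lost with no filter on low counts (1.17, adjusted p 0.0655 in edgeR).

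Among the RNA sensors, RIGI and the oligoadenylate synthetase genes OAS1, OAS2 and OASL also fell in HPV- resistant cells and rose in HPV+ resistant cells. Of 13 sensors tested, 4 fell and 2 rose in HPV- resistant cells, and 1 fell and 6 rose in HPV+ resistant cells. The last count was lower without HPV+ parental replicate 1. Among all genes, 26.8% rose or fell in HPV- resistant cells and 18.1% in HPV+ resistant cells. RIGI, the receptor that signals through MAVS, had 57.0 and 61.2 CPM in HPV- resistant cells, against 118 and 169 CPM in HPV- parental cells. It had 17.0 and 15.0 CPM in HPV+ resistant cells, against 5.74 and 7.02 CPM in HPV+ parental cells. Neither pair overlapped, and the log2 fold change was -1.28 (SE 0.18, adjusted p 0.00108 in edgeR) in HPV- cells and 1.33 (SE 0.20, adjusted p 0.00213) in HPV+ cells. OASL, a member of the oligoadenylate synthetase family that binds RIG-I, changed by -1.44 (adjusted p 0.0004) and 1.29 (adjusted p 0.00135). Both RIGI and OASL passed in the same direction in each clone in all 16 alternative analyses. The endosomal receptor TLR3 went the other way, with a rise of 1.64 in HPV- resistant cells (SE 0.21, adjusted p 0.000595) and a log2 fold change of -0.43 in HPV+ resistant cells (adjusted p 0.199).

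In all, 11 of the 104 genes passed the test in both clones. RIGI, OAS1, OAS2, OASL, MX1, ISG15 and IFIT1 were the 7 that fell in HPV- and rose in HPV+ resistant cells, and RNF135, a ubiquitin ligase for RIG-I, was the 1 that did the reverse. Across all genes, 1037 passed in both clones, of which 143 fell in HPV- and rose in HPV+ resistant cells and 427 fell in both. BANF1, which coats cytosolic DNA and limits its access to cGAS, and RNASEH2C, a subunit of the nuclease that removes RNA from RNA-DNA hybrids, were the 2 listed genes that fell in both. BANF1 had 196 and 241 CPM in HPV- resistant cells against 616 and 432 CPM in HPV- parental cells, and 83.9 and 81.0 CPM in HPV+ resistant cells against 178 and 157 CPM in HPV+ parental cells. The log2 fold change of BANF1 was -1.26 (adjusted p 0.00127 in edgeR) and -1.02 (adjusted p 0.00565), and that of RNASEH2C was -1.23 (adjusted p 0.00354) and -1.01 (adjusted p 0.0136). The receptor kinase JAK1 rose in both, by 0.77 (adjusted p 0.015) and 1.11 (adjusted p 0.00437). Without HPV+ parental replicate 1 the HPV+ changes missed the threshold for BANF1 (0.0596), RNASEH2C (0.106) and JAK1 (0.0587), that of RNASEH2C also without either HPV+ resistant library (0.0654 and 0.0879), and the HPV- change of JAK1 missed it without HPV- resistant replicate 1 (0.0973). OAS1, OAS2 and IFIT1 lost their rise in HPV+ cells without either parental library, without resistant replicate 1, and without either HPV- resistant library. RNF135 lost its fall there without any 1 of the 4 HPV+ libraries. OAS2 lost its fall in HPV- cells without HPV- parental replicate 2 or either HPV- resistant library. With an offset for transcript length, OAS1 (0.68, adjusted p 0.196 in edgeR) and RNF135 (-0.66, adjusted p 0.0687) also missed the threshold in HPV+ cells.

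**Figure D4:**
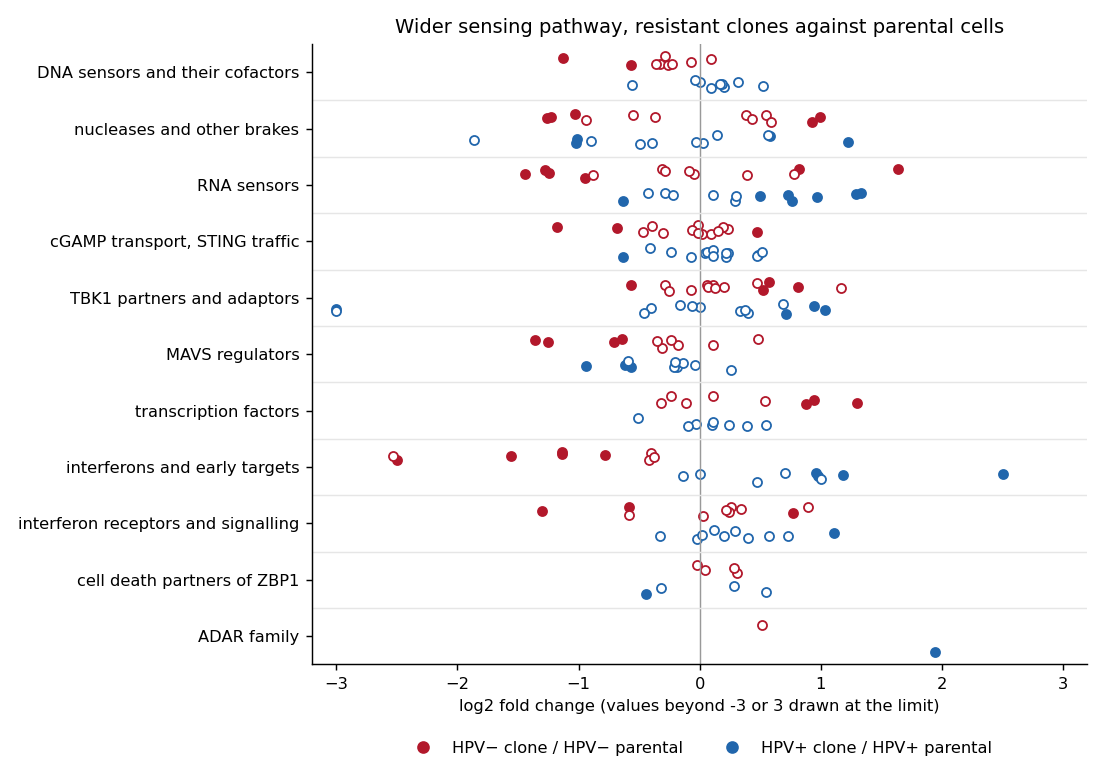
Log2 fold change of each of the 104 tested pathway genes with resistance, by role, for HPV- and HPV+ cells; each point is 1 gene, filled where its adjusted p was under 0.05 in edgeR, and values beyond the axis limits are drawn at the limit. The interferon targets lie mostly below 0 in HPV- cells (median -1.14) and above 0 in HPV+ cells (median 0.96).

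Among further nucleases and regulators, DNASE2, which degrades DNA in lysosomes, rose by 0.99 in HPV- resistant cells (adjusted p 0.00371 in edgeR), against a log2 fold change of -0.49 in HPV+ resistant cells (adjusted p 0.0827). SAMHD1, which hydrolyses deoxynucleotides, rose by 1.22 in HPV+ resistant cells (adjusted p 0.00448), and missed the threshold without HPV+ parental replicate 1 (0.058). Of 10 regulators and partners of MAVS, 4 fell in HPV- resistant cells, against 14.1% of all genes. In HPV+ resistant cells 3 fell, against 10.5% of all genes. Without HPV+ parental replicate 1 these 3 missed the threshold, with log2 fold changes of -0.87 for RNF5, -0.6 for MFN2 and -0.73 for FADD. TOMM70, to which MAVS binds on the outer mitochondrial membrane, fell by 1.25 in HPV- resistant cells (adjusted p 0.0004), as did C1QBP, a mitochondrial protein that inhibits MAVS, by 1.36 (adjusted p 0.000327). ADARB1, the second catalytically active editing enzyme of the ADAR family, rose by 1.94 in HPV+ resistant cells (SE 0.33, adjusted p 0.00408), and missed the threshold with an offset for transcript length (0.177). Of 8 transcription factors that act with IRF3 or beside it, 3 rose in HPV- resistant cells, also in all 16 alternatives, against 12.8% of all genes. Among them IRF1 rose by 1.30 in HPV- resistant cells (SE 0.14, adjusted p 0.000253) and had 0.24 in HPV+ resistant cells (adjusted p 0.283).

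Between the parental lines 51 of the 104 genes were lower and 16 higher in HPV+ cells, against 30% lower and 28.0% higher among all genes. Between the clones 49 were lower and 19 higher, which is 65.4% of the list. Among all genes 30.4% were lower between the clones and 57.9% were higher or lower. As above, HPV status cannot be told apart from line identity in these comparisons. All 9 interferon targets tested and 11 of the 13 RNA sensors were lower in HPV+ parental cells than in HPV- parental cells, with a median of -4.90 for the targets and -1.50 for the sensors. The log2 fold change of HPV+ over HPV- parental cells was -4.49 for RIGI (SE 0.21, adjusted p 8.1e-08 in edgeR) and -5.33 for IFIT3 (SE 0.20, adjusted p 2.71e-08). Between the clones, HPV+ over HPV-, the values were -1.88 for RIGI (adjusted p 1.49e-05) and -3.98 for IFIT3 (adjusted p 8.71e-08). MX1 had -1.37 between the clones (adjusted p 0.000694) and -4.65 between the parental lines (adjusted p 4.75e-07). Of the genes that act with ZBP1 in cell death, CASP8 and MLKL were lower in HPV+ cells between the clones (-0.93 for CASP8 and -1.28 for MLKL on the log2 scale, adjusted p 0.00126 and 0.000994) and between the parental lines (-1.17 for CASP8 and -1.52 for MLKL, adjusted p 0.000282 and 0.000353).

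**Figure D5:**
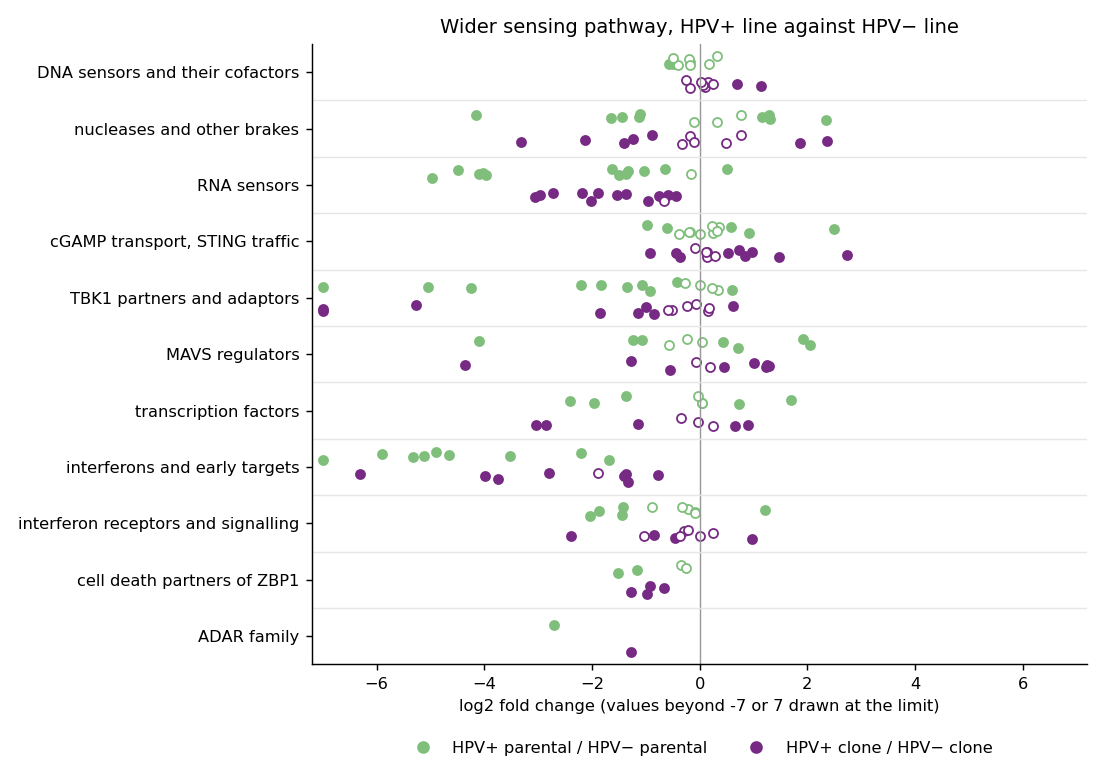
Log2 fold change of HPV+ over HPV- cells for each of the 104 tested pathway genes, by role, between the clones and between the parental lines; each point is 1 gene, filled where its adjusted p was under 0.05 in edgeR, and values beyond the axis limits are drawn at the limit. Interferon targets and RNA sensors lie mostly below 0, with medians of -4.90 and -1.50 between the parental lines.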

How the data were processed

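The deposited files were Salmon quantifications, 1 per library, in which the authors gave estimated counts (expected counts) and TPM for 187432 transcripts of GRCh38. Neither the Salmon version nor the annotation is given in the sources used here. Estimated counts were summed per gene by GENCODE v44 transcript identifier (172550 transcripts matched, 92.06%) and rounded. Differences were tested by edgeR 4.0.16 under R 4.3.3 (TMM factors, filterByExpr, robust quasi-likelihood fit over all 8 libraries, Benjamini-Hochberg adjustment over 15221 genes). DESeq2 1.42.0, other factors and filters, an offset for transcript length, the 4 libraries of 1 line, a replicate block and each library left out were alternatives. The script was tested on simulated data. Library depth limits ZBP1 and the interferon genes, and intervals on counts cover counting error only. Promoter stretches and TPM of protein classes are descriptions. The members and lists were chosen with earlier results of these data known. The pathway genes named were those with the smallest p-values past the threshold and a mean of at least 1 CPM, up to 3 per role, comparison and direction. Genes outside this rule are named only to spell out a count, after their values were seen.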

Additional observations from a re-analysis of the deposited data

Results flagged for a closer look

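In edgeR's interaction test, the change with resistance differed between the lines (adjusted p under 0.05) for 25 of the 104 pathway genes. That is 24.0%, against 16.7% of all genes. Genes named by the rule above, up to 3 per role and direction, are given below with the log2 difference, HPV+ minus HPV-. Among the members such a difference held for TREX1 (-1.14). Among nucleases it held for DNASE2 (-1.48), RNASEH2B (0.95) and PNPT1 (1.00). Among RNA sensors and their ligases it held for RIGI (2.60), TLR3 (-2.07), OAS1 (2.0), OASL (2.73) and RNF135 (-1.45). LRRC8A (1.11), TMED2 (0.75) and TRAF3 (0.83), which act in cGAMP transport, STING traffic and kinase activation, differed too. Of the regulators of MAVS, TOMM70 (1.21) and C1QBP (1.16) differed. So did NLRX1, an inhibitor of STING1 and MAVS signalling, but its fitted difference of -7.66 is no measure of size, because it had 0 counts in both HPV+ resistant libraries. Among transcription factors and targets, the difference was -1.06 for IRF1, -1.05 for CREBBP, 2.09 for IFIT1, 2.74 for ISG15, 3.28 for MX1, 0.98 for STAT2 and 1.5 for USP18. CFLAR, a regulator of caspase-8, differed by -0.72. Of these, TRAF3 missed the threshold in 7 of 15 alternatives (adjusted p up to 0.149), TMED2, CFLAR and CREBBP in 6 each (up to 0.42, 0.393 and 0.113), and STAT2 in 2 (up to 0.0884). Each of these losses was under the offset for transcript length or on leaving out 1 library. With the offset, the difference was 0.31 for TMED2 and -0.36 for CFLAR. TLR3 also missed the threshold with the offset (-1.77, adjusted p 0.0683 in edgeR). TREX1 missed it in 6, as given above.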

How the results depend on the processing

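With no minimum fold change, 1 member was called in HPV- resistant cells, 2 between the parental lines and 4 between the clones. The pathway list gave 35 calls in HPV- resistant cells, 26 in HPV+ resistant cells and 68 between the clones. By this rule 26.8% of all genes were called in HPV- resistant cells and 18.1% in HPV+ resistant cells. It called 58.0% of all genes between the parental lines and 57.9% between the clones. With an offset for transcript length, 0 members were called for the difference between the lines, and TBK1 in HPV+ resistant cells had a log2 fold change of 0.11. When 1 library was left out, calls ranged from 0 to 1 for the members in HPV+ resistant cells, from 0 to 1 for their difference and from 5 to 11 for the pathway list in HPV+ resistant cells. In the same analyses, values near 0 changed sign: TREX1 in HPV- resistant cells ranged from -0.20 to 0.27 and ADAR from -0.10 to 0.32, the differences ranged from -0.027 to 0.31 for TBK1, from -0.19 to 0.48 for IRF3 and from -0.084 to 0.36 for ADAR, and TREX1 between the parental lines ranged from -0.34 to 0.062. Why these values moved was not tested. Upper-quartile factors moved the median of all genes in HPV- resistant cells to 0.117, against 0.036 with TMM, and changed no call of a member.

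The replicate numbers are shared between groups, but libraries with the same number did not deviate together (r between -0.074 and 0.142), so they share only a number. With the replicate as a block, TREX1 in HPV+ resistant cells had a log2 fold change of -1.09 (adjusted p 0.0164 in edgeR), and the pathway list gave 10 calls there, against 11 without the block. The lost call was TBKBP1 (1.03, adjusted p 0.0568), and among genes under the fold limit OAS2 (0.0548), CFLAR (0.0664), TRIM25 (0.0509) and AZI2 (0.0511) also missed the threshold there. No call of a member changed.

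With 2 libraries per group, several calls rest on single libraries, and ZBP1 and the interferon genes had too few counts to pass the filter.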
